A study of Drosophila melanogaster with 6 samples.

Results

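The thioredoxin genes dhd (deadhead), TrxT and Trx-2 and the thioredoxin reductase genes Trxr1 and Trxr2 of Drosophila melanogaster were examined on 6 single-colour oligonucleotide arrays. All 5 genes were chosen by name, and every probe set whose platform annotation gives one of them as its only gene was kept. This left 5 probe sets, 1 per gene, of the 13966 tested. Trx-2 stands in the annotation under its other spelling, Trx2. The groups were 3 samples of highly purified germline stem cells from bam mutant ovaries (GSC 1 to 3) and 3 samples of cultured Kc cells (Kc 1 to 3). In bam mutant ovaries the stem cells accumulate because bam, which starts their differentiation, is disrupted. Kc is an established line derived from embryos and kept in tissue culture. The labels used here give no bam allele, no age of the flies, and no statement that arrays of a group came from separate dissections or cultures, so the p-values reflect the spread among these particular arrays, part or all of which may be technical. The design also names Dpp-overexpressing ovaries, whose samples were not analysed here.

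Thioredoxins are small proteins with a pair of reactive cysteines that reduce disulfide bonds in other proteins. The oxidised thioredoxin is then reduced again by thioredoxin reductase with electrons from NADPH. Flies lack glutathione reductase, so the thioredoxin system also keeps glutathione reduced. Dhd is the thioredoxin of the female germline and, in the fertilised egg, helps to strip protamines from sperm chromatin. TrxT is its counterpart in the male germline, and Trx-2 is the general thioredoxin. Trxr1 encodes cytoplasmic and mitochondrial forms of the essential reductase, and Trxr2 encodes a second reductase.

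Transcripts of dhd were high in GSC and near the bottom of the signal range in Kc, whereas the general pair Trx-2 and Trxr1 was bright on every array and differed little between them. The dhd signal was 3498.4, 3423.2 and 3489.3 in GSC 1 to 3 and 27.5, 8.6 and 6.9 in Kc 1 to 3, in units of the authors' scaled array signal. All 3 GSC arrays were high and close to each other, and every Kc array was low. The mean of the 3 arrays was 3470 ± 41 (SD) for GSC, and for Kc it was 14.3 ± 11.4 (SD, n = 3). Differences are given as log2 folds of GSC over Kc after a pseudocount of 38 was added to each signal, which is the 25th percentile of all values and keeps dim signals from giving unstable ratios. On that scale dhd rose by 6.09 ± 0.184 (SE), a fold of 68.0, with an adjusted p of 3.02e-08 in limma's test over all probe sets.

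The Kc signals of dhd all lay below the pseudocount, so the size of its fold follows that choice. The log2 fold was 8.07 with a pseudocount of 1 and 4.37 with a pseudocount at the median of all values. By upward fold dhd had rank 4 of the 13966 probe sets with the pseudocount of 38 and rank 10 with that at the median. The deposited table holds no detection call. As a guide to dim signals, 8 control probe sets for mouse and yeast sequences read between 3.2 and 121.3 on these arrays, with a median of 22.8. The Kc values of dhd fall inside that range and the GSC values lie far above it.

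**Figure D1:**
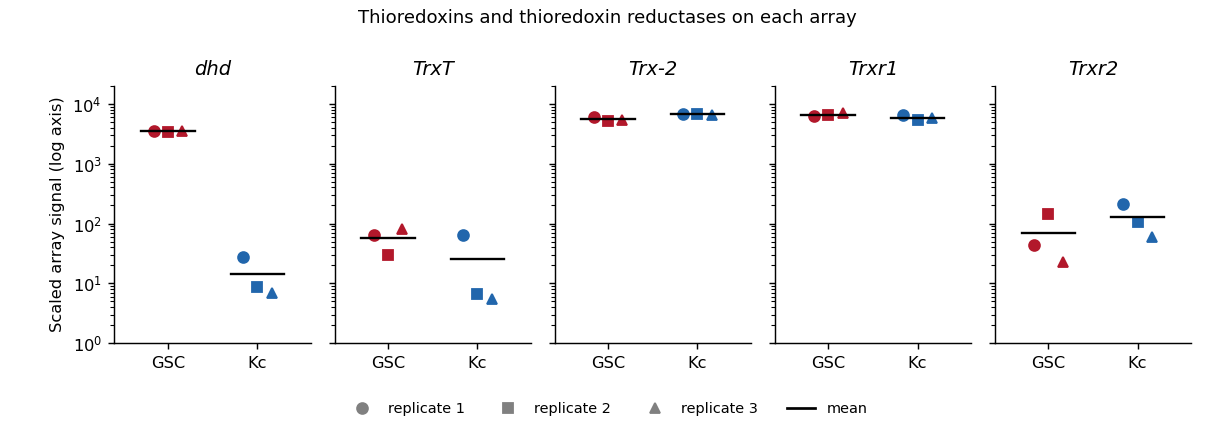
Scaled array signal on a log axis for dhd, TrxT, Trx-2, Trxr1 and Trxr2, with 1 point per array, a symbol per replicate number and a line at the mean of each group of 3. The dhd points lie near 3470 in GSC and below 28 in Kc, the lowest Trx-2 point is 5220.8 and the lowest Trxr1 point 5385.9, and the TrxT and Trxr2 points lie low and scattered in both groups. Heights are not comparable between genes, because each probe set has its own response.

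A probe set was called when its adjusted p was under 0.05 and its fold at least 2. By that rule 1 of the 5 genes was higher in GSC, and 0 were lower. The same rule called 11.7% of all 13966 probe sets higher and 8.11% lower, so 1 call among 5 is close to the background and nothing is read from the count. The GSC arrays lay all above or all below the Kc arrays for 2 of the 5 genes, dhd and Trx-2, and for 45.4% of all probe sets. The median log2 fold of the 5 genes was 0.17, beside 0.04 over all 10844 genes measured.

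TrxT, the male germline thioredoxin, was dim in both groups. Its signal was 64, 29.7 and 80.9 in GSC 1 to 3 and 63.8, 6.6 and 5.5 in Kc 1 to 3. The groups overlap, since Kc 1 read almost as high as GSC 1 and higher than GSC 2. Every one of these values lies in the range of the mouse and yeast controls. The log2 fold was 0.69 ± 0.38 (95% interval -0.17 to 1.54, adjusted p = 0.215 by limma), and TrxT was not called. Without Kc 1 it was called, with a log2 fold of 1.09 and an adjusted p of 0.0238 by limma, so that array alone decides the call. Over all 16 alternatives the adjusted p lay between 0.0238 and 0.569.

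Trx-2, the general thioredoxin, was bright in both groups. Its signal was 5921.4, 5220.8 and 5265.5 in GSC 1 to 3 and 6837.7, 6726.1 and 6525.4 in Kc 1 to 3. The groups do not overlap, and every GSC value is the lower one, but the distance is small. The log2 fold was -0.29 ± 0.0928 (95% interval -0.50 to -0.08, adjusted p = 0.0343 by limma), a signal lower by a factor of 1.22, well under the fold minimum, and the direction turned with quantile normalization (0.02) and with scaling to the hybridisation controls (0.16).

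Trxr1, the main reductase, was likewise bright throughout. Its signal was 6244.8, 6493.7 and 6955.4 in GSC 1 to 3 and 6411.2, 5385.9 and 5743.9 in Kc 1 to 3. The groups overlap through Kc 1, which lies between GSC 1 and GSC 2. The log2 fold was 0.17 ± 0.1 (95% interval -0.06 to 0.39, adjusted p = 0.249 by limma), and it stayed between 0.04 and 0.62 over the 16 alternatives without being called. A single probe set cannot separate its cytoplasmic from its mitochondrial form here.

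Trxr2, the second reductase, was low and scattered. Its signal was 43.1, 144.1 and 23.1 in GSC 1 to 3 and 213.2, 105.8 and 59.4 in Kc 1 to 3. The groups overlap widely, and the values within each lie far apart. The log2 fold was -0.65 ± 0.481 (95% interval -1.74 to 0.43, adjusted p = 0.357 by limma). The interval includes folds of more than 2 downward, so a difference of that size is not excluded.

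The 5 genes thus fell into 3 patterns across the arrays: dhd high in GSC and dim in Kc, Trx-2 and Trxr1 bright everywhere, and TrxT and Trxr2 low or scattered in both groups, with Trxr2 above the range of the mouse and yeast controls on GSC 2 and Kc 1. To describe how far dhd moved apart from the others, its log2 value was set against that of each other gene on the same array. This cancels any scaling of whole arrays apart from the pseudocount. The shift of that difference from Kc to GSC was 5.40 against TrxT, 6.38 against Trx-2, 5.92 against Trxr1 and 6.74 against Trxr2. In each of the 4 pairs the lowest GSC value exceeded the highest Kc value. The two-sided exact permutation p was 0.1 for each pair and 0.1 after adjustment over the 4 pairs, which is the smallest that 3 against 3 arrays can give, so this design cannot pass 0.05. All 4 pairs share the dhd values, and each shift is the difference between 2 log2 folds given above. The pairs are therefore no separate support for the dhd fold.

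The difference between Trx-2 and Trxr1, chosen after the values were seen, also moved. Trx-2 minus Trxr1 was -0.08, -0.31 and -0.40 in GSC 1 to 3 and 0.09, 0.32 and 0.18 in Kc 1 to 3. The groups do not overlap. The sign of these values is not read, because signal heights are not comparable between probe sets. The mean fell by 0.46 on the log2 scale from Kc to GSC, with the same exact p of 0.1. Neither gene was called on its own, so this is given as a description.

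Signals of markers and control transcripts bear on how these values are read. Over all genes 12.5% were called higher in GSC and 8.02% lower, which is the background for the marker counts. Of 9 germ cell markers 9 were higher in GSC, with summed signals of 36900 to 39976 against 380 to 501 in Kc. Counts and sums use the brightest probe set of a gene. A second nanos probe set was also called higher (2.28), while a second, dimmer ovo probe set was not called (0.41 ± 0.561). Of 15 hemocyte markers 6 were lower in GSC and 2 higher, with summed signals of 1740 to 1913 against 25475 to 26707. Genes of growing egg chambers and the oocyte, a later stage of the same lineage where dhd is also known to be expressed, were higher in 7 of 11 cases and lower in 1, and summed to 4928 to 5344 in GSC against 2192 to 2470 in Kc. Among them bcd, whose RNA patterns the embryo, had a signal of 237.7 to 311.3 in GSC, and the germ plasm gene osk had 135.5 to 167.1. Brighter in GSC were BicD at 1396.7 to 1569.7, yl at 754.8 to 848.8 and the brighter gnu probe set at 873.9 to 910.1. The gene called lower on this list was png, with a log2 fold of -2.21. Eggshell and yolk genes were higher in 6 of 14 cases and lower in 0, summing to 5369 to 6004 against 1944 to 2520. Of 16 spermatocyte and spermatid genes 3 were higher and 0 lower, with sums of 2666 to 3588 against 1526 to 2228. The brighter bol probe set alone had 1135.7 to 1188.3 in GSC and 162.3 to 191.0 in Kc, so these sums do not describe the list as a set. A second bol probe set was not called (0.12). Of 12 ovarian somatic genes 1 was higher and 1 lower, with sums of 1173 to 1519 against 3786 to 4496. The lower one, zfh1, had 267.8 in GSC and 3082 in Kc, and without it the other 11 genes summed to 1001 to 1203 against 866 to 1201. Calls in the spermatocyte list (18.8% higher, 0% lower) and the somatic list (8.33% each way) are near the background. Nothing is read from these counts. The listed eggshell gene Vm26Ab and the listed somatic genes Fas3 and Wnt4 had no probe set of their own and were not measured. The part of other cells in the dhd signal was not tested, and more cells of a type cannot be told apart from more RNA per cell. The 3' control probe set of actin, divided by its 5' probe set, gave 4.22 to 4.77 in GSC and 1.76 to 1.90 in Kc. The same ratio was 4.63 to 6.09 against 3.46 to 3.92 for GAPDH and 5.21 to 7.03 against 3.43 to 3.95 for eIF-4a. Where the probes of the 5 genes lie in their transcripts is not known here, so the part of this 3' excess in their folds was not tested. The hybridisation controls read 2113 to 3753 in GSC and 3636 to 4302 in Kc as geometric means, and with scaling to them the median log2 fold over the 13966 probe sets was 0.32 in place of 0.025. The split of calls was then 2810 higher and 685 lower (80.4% higher), beside 1633 and 1132 (59.1%) with the authors' scaling.

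The genes dhd and TrxT are immediate neighbours in the RefSeq gene order of the assembly Release 6 plus ISO1 MT, so the genes around them were read as well. On the side of dhd, the next gene, CG4198, was dim, at 84.6, 64.8 and 71.2 in GSC and 75.7, 36.8 and 41.8 in Kc. The groups overlap, and its log2 fold was 0.34 ± 0.297. The gene after it, CG15930, for which no function is given here, had signals of 798.2, 739.7 and 653.6 in GSC and 15.4, 13.1 and 23.3 in Kc. It rose by 3.80 ± 0.224 on the log2 scale (adjusted p = 1.2e-06 by limma), with all GSC arrays far above all Kc arrays. Its Kc values lie below the pseudocount and in the range of the mouse and yeast controls, and its log2 fold ran from 2.31 to 5.36 over the 16 alternatives. On the side of TrxT, the nearest gene with a probe set of its own was Cdk7, a kinase gene of the cell cycle and of transcription, with 663, 896.1 and 897 in GSC and 1051.7, 876.8 and 871.8 in Kc. Its log2 fold was -0.19 ± 0.155 and was not called, and its direction turned with scaling to the hybridisation controls (0.24). The gene beyond, CG17764, was dim in both groups, with a log2 fold of 0.21 ± 0.297. Of these 4 neighbours 1 was thus higher and 0 lower, while genes were called higher in 12.5% of all cases.

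**Figure D2:**
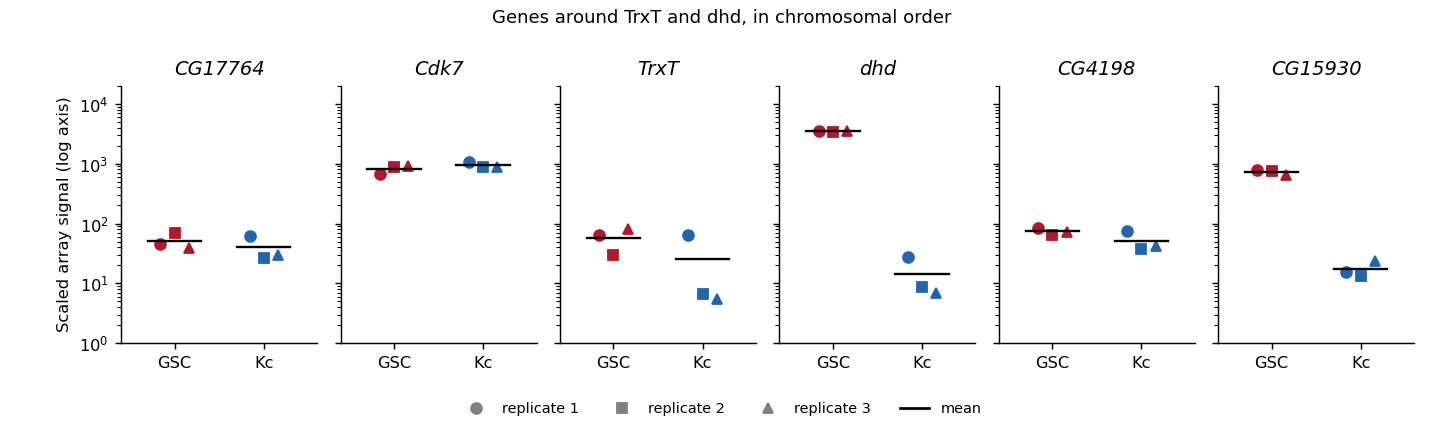
Scaled array signal on a log axis for TrxT, dhd and the measured genes beside them in chromosomal order, with 1 point per array and a line at the mean of each group of 3. Signals of dhd and CG15930 are high in GSC and below 28 in Kc, while TrxT and CG4198, which flank dhd, are below 85 on every array.

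Genes known to act on dhd transcription in the ovary were also measured. Kdm5, also called lid, a histone H3 demethylase that dhd needs for its expression there, had 2506 ± 351 in GSC and 829.7 ± 76.4 in Kc. It rose by 1.55 ± 0.133 on the log2 scale (adjusted p = 1.56e-05 by limma). Snr1, a subunit of the Brahma remodelling complex, had a log2 fold of 0.29 ± 0.107 and was not called. The brightest of 4 probe sets of the insulator gene mod(mdg4) had a log2 fold of 0.97 ± 0.191 (adjusted p = 0.00288 by limma), just under the fold minimum. It passed with a pseudocount of 1 (1.09), with a floor (1.09), with scaling to the hybridisation controls (1.37), without GSC 2 (1.01) and without Kc 2 (1.08). Its other probe sets had 0.98, 0.12 and -0.60. Sin3A, which belongs to the same list, had no probe set of its own.

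The genes with the pattern most like dhd were sought by the root mean square difference between centred log2 values over the 6 arrays. The nearest were Ypel (0.278), the germline gap junction gene zpg (0.291), the ribosomal protein gene RpS5b (0.294), CG6770 (0.378) and the germline transcription factor gene ovo (0.392). Each was bright on all GSC arrays, with means of 6132, 4462, 30800, 17020 and 2045. In Kc their means were 85.8, 56.9, 637.3, 331.8 and 14.3, in the same order. RpS5b and CG6770 were thus above the range of the mouse and yeast controls on every Kc array, while dhd lay inside it. The log2 folds of these nearest genes were 5.34 to 5.64. Since the Kc values of dhd lie below the pseudocount, no order against dhd is drawn from these. With the pseudocount at the median of all values, zpg and Ypel were again among the nearest 5, and the others were Hsp27, piwi and krimp.

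The wider thioredoxin system and other genes linked to it or to dhd were read from lists. The lists also hold the regulators of dhd, genes of paternal chromatin and disulfide enzymes of the endoplasmic reticulum. The last supply 5 of the 13 lower calls. Of 48 genes measured over 11 lists, 5 were higher and 13 lower in GSC, 10.4% and 27.1%, beside 12.5% and 8.02% of all genes. The median log2 fold was -0.11. The lists were chosen with earlier results of these data known, so the shares given here and below for single lists are a description only. Scaling to the hybridisation controls gave 11 higher and 7 lower, 22.9% and 14.6%, beside 21.6% and 4.84% of all genes under that scaling.

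Enzymes that spend reduced thioredoxin on repair were among those lower. Of 4 listed, RnrS had no probe set of its own. Of 3 measured, 2 were lower (66.7%, beside 8.02% of all genes). Both are methionine sulfoxide reductases, which reverse oxidation of methionine in proteins. MsrA had 225.3, 267.2 and 288.2 in GSC and 2538, 3201.8 and 2998.1 in Kc. Its GSC values lie far below all Kc values, and it fell by 3.31 ± 0.142 on the log2 scale (adjusted p = 2e-07 by limma). SelR, which acts on the other stereoisomer, had 1322.9, 1208.9 and 1187.2 against 4095.2, 3561.4 and 3642.1. It fell by 1.57 ± 0.106 (adjusted p = 2.86e-06 by limma), and both calls held over all 16 alternatives. The large subunit gene of ribonucleotide reductase, RnrL, which makes the precursors of DNA, had a log2 fold of -0.47 ± 0.12 and was under the fold minimum. Peroxiredoxins remove peroxides, many of them with thioredoxin, and whether Prx6a uses it was not tested here. Of 8 listed, 2 had a probe set of their own and 0 were called by limma, with 1, Prx6a, at an unadjusted p under 0.05. The mitochondrial Prx3 had a log2 fold of 0.02 and turned direction with scaling to the median (-0.10). Prx6a had 0.90 ± 0.141 (adjusted p = 0.000684 by limma), and with scaling to the hybridisation controls it passed the fold minimum (1.33).

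Among 5 thioredoxin-like genes 1 was lower and 0 higher, beside 8.02% and 12.5% of all genes, so nothing is read from the count. Txl had 2709 ± 85.8 in GSC and 6399 ± 155 in Kc and fell by 1.23 ± 0.0876 on the log2 scale, a call lost with scaling to the hybridisation controls (-0.78). CG3719 had a log2 fold of 0.97 ± 0.142, just under the fold minimum, which it passed with that scaling (1.40), with a floor in place of the pseudocount (1.00), without GSC 1 (1.08) and without Kc 1 (1.04). CG8993 had 0.42 ± 0.128, CG13473 -0.14 ± 0.357 and CG8517 -0.73 ± 0.282, none of them called. Of 2 genes whose mammalian counterparts bind thioredoxin, the stress kinase gene Ask1 rose by 1.34 ± 0.198. Vdup1 had 0.65 ± 0.241 and was called only with scaling to the hybridisation controls (1.03).

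Disulfide enzymes of the endoplasmic reticulum, many of them built from thioredoxin domains, were lower in 5 of 6 cases and higher in 0. The share lower was 83.3%, beside 8.02% of all genes. ERp60, a protein disulfide isomerase gene, had 4577.1, 4551.2 and 4624.6 in GSC against 18697.3, 17573.3 and 17163.9 in Kc and fell by 1.95 ± 0.0863 on the log2 scale. CaBP1 fell by 1.66, the oxidase gene Ero1L by 1.27, Pdi by 1.19 and prtp by 1.16. The sixth, wbl, was dim, with 20.3 ± 6.96 against 32.7 ± 11.6. With scaling to the hybridisation controls 2 of the 6 were lower, ERp60 and CaBP1. That is 33.3%, beside 4.84% of all genes under that scaling. With quantile normalization 4 were lower, 66.7% beside 8.81% of all genes, since Pdi was then under the fold minimum (-0.98). The list's median log2 fold was -1.23.

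Glutathione and NADPH supply were read beside these. Of 8 measured glutathione and glutaredoxin genes 2 were lower and 0 higher, 25% and 0%, beside 8.02% and 12.5% of all genes. The listed Gss1 and Gss2 had no probe set of their own. Gtpx, a glutathione peroxidase homolog that uses thioredoxin in flies, fell by 1.43 ± 0.152, from 11140 ± 2220 in Kc to 4071 ± 560 in GSC, and scaling to the hybridisation controls left it just under the minimum (-0.98). Gclc, the catalytic subunit gene of glutathione synthesis, fell by 1.45 ± 0.17, while its modifier subunit gene Gclm had -0.35 ± 0.123. Of 5 listed NADPH-producing enzymes, Zw and Pgd had no probe set of their own and were not measured. Among the 3 measured, 2 were lower, 66.7%, beside 8.02% of all genes. The malic enzyme gene Men had 179.1, 112.2 and 211.1 in GSC against 2442.3, 2368 and 2255.4 in Kc and fell by 3.57 ± 0.188. A second, dimmer Men probe set fell by 1.91. Idh fell by 1.22, a call lost with scaling to the hybridisation controls (-0.77), and the brighter of 2 Men-b probe sets had -0.14 ± 0.104, turning direction with that scaling (0.31) and with quantile normalization (0.10). The other Men-b probe set had -0.76 ± 0.121 (adjusted p = 0.000752 by limma), under the fold minimum but with every GSC array below every Kc array, so the probe sets disagree.

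Other antioxidant enzymes moved in both directions. Of 8 listed, Sod1 had no probe set of its own. Of 7 measured, 2 were higher and 1 lower, 28.6% and 14.3%, beside 12.5% and 8.02% of all genes. Pxt, a peroxidase gene known for its role in the ovary, had 2815.3, 3245.7 and 3676.1 in GSC and 151.4, 22.4 and 126.3 in Kc and rose by 4.73 ± 0.368. Ccs, the copper chaperone gene of superoxide dismutase, rose by 1.31 ± 0.261, a call lost with the pseudocount at the median (0.82), and the immune catalase gene Irc fell by 2.66 ± 0.34. The catalase gene Cat had 0.66 ± 0.177, passing the minimum with scaling to the hybridisation controls (1.10), and the mitochondrial Sod2 had -0.09 ± 0.0956, which turned to 0.36 with that scaling. Among 3 regulators of the oxidative stress response, maf-S, whose product pairs with cnc, rose by 1.57 ± 0.116. The brightest cnc probe set had 0.78 ± 0.157, passing the minimum with scaling to the hybridisation controls (1.21), and a second bright one -0.95 ± 0.18, so the probe sets of cnc disagree, and the inhibitor gene Keap1 had 0.35 ± 0.2.

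**Figure D3:**
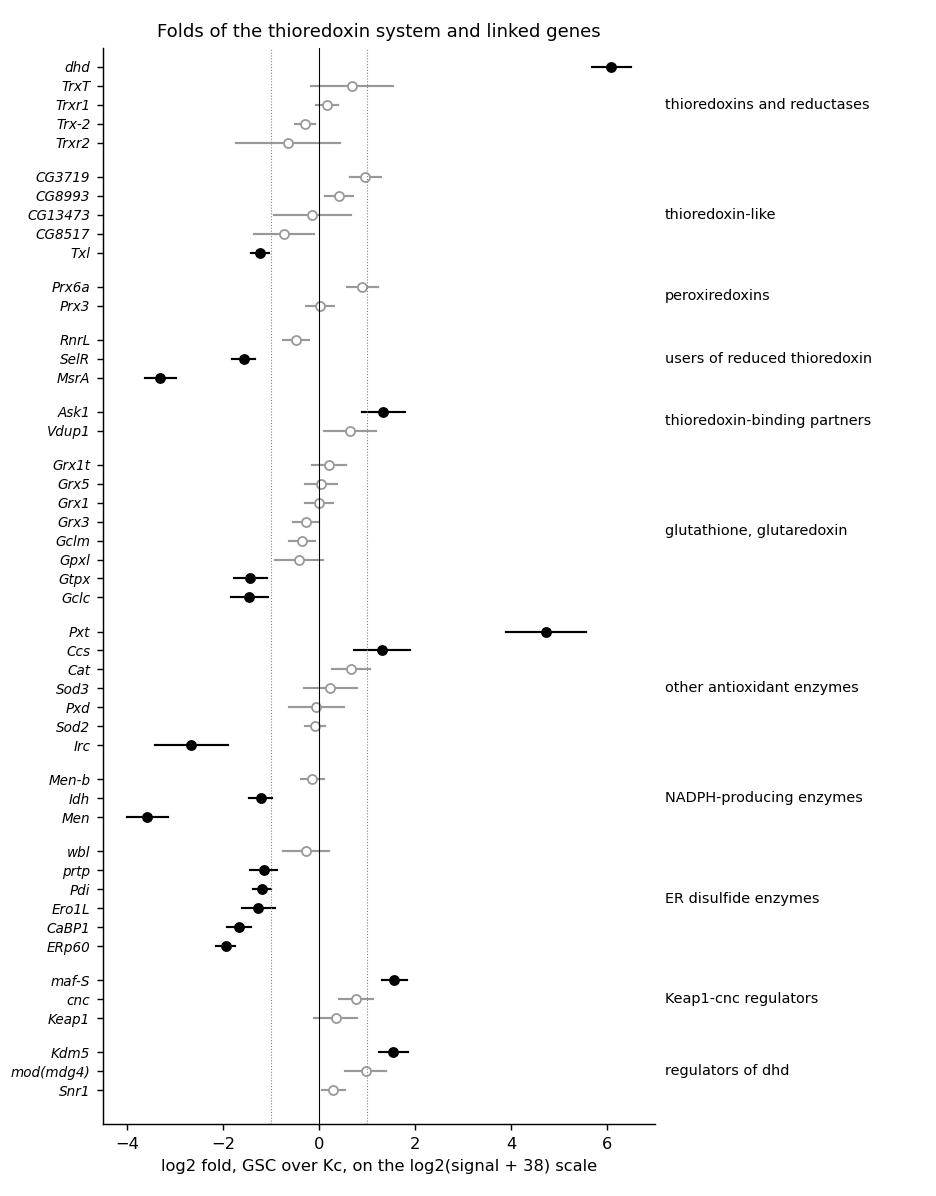
Log2 folds of GSC over Kc with 95% intervals from limma for the 5 genes and for linked genes, grouped by role, with 1 probe set per gene. Filled black points passed the test and the fold minimum, open grey points did not, and dotted lines mark a fold of 2. The dhd fold of 6.09 stands apart from the other 4 of its group, and 5 of 6 disulfide enzymes of the endoplasmic reticulum lie at -1.16 or below.

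Dhd acts on sperm chromatin at fertilisation, and of 6 measured genes of paternal chromatin 0 were called higher and 0 lower by limma, with 2, Hira and ProtB, at an unadjusted p under 0.05. These counts use the brightest probe set of a gene. Among all genes 12.5% were called higher and 8.02% lower, so nothing is read from 0 calls among 6. The other 2 probe sets of yem, a partner gene of Hira, also had an unadjusted p under 0.05, with log2 folds of 0.45 and 0.53 (adjusted p = 0.0597 and 0.00932 by limma), under the fold minimum. Hira, a histone chaperone gene, had a log2 fold of 0.29 ± 0.125, and asf1 had 0.29 ± 0.13. The protamine gene ProtB and the sperm chromatin gene Mst77F were dim on every array, with means of 5.13 and 9.73 in GSC, and ProtB was called lower only with a pseudocount of 1 (-1.83).

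The contrast between the 5 genes was compared over the processing alternatives. The gene dhd was called under all 16, with log2 folds of 4.37 to 8.07. TrxT was called under 1, the fit without Kc 1, and Trx-2, Trxr1 and Trxr2 under 0.

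**Figure D4:**
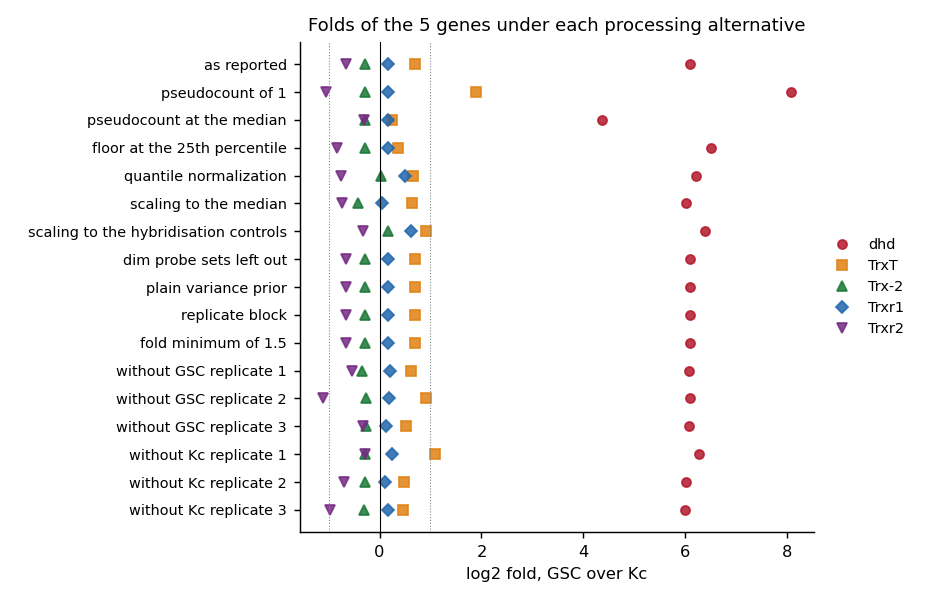
Log2 folds of GSC over Kc for the 5 genes as reported and under each of 16 processing alternatives, with dotted lines at a fold of 2. The dhd points run from 4.37 to 8.07 and lie to the right of all others in each row, and the Trx-2 points cross 0 with quantile normalization and with scaling to the hybridisation controls.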

How the data were processed

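Values were used as the authors deposited them, as linear intensities with a single value for each probe set on each array. The submitters' processing notes name MAS5, with its version and parameters not given in the sources used here. Per the labels, RNA was labelled with the Enzo BioArray kit. The mean after trimming 2% at each end was 500.1 on all 6 arrays, a global scaling, so no second normalization was applied. The number of arrays limits the precision. The 44 array controls were left out, which left 13966 probe sets. Of these, 12443 carry 1 gene symbol, 327 several and 1196 none, and 12394 were matched by gene identifier to RefSeq. Symbols in the gene lists were brought up to date through RefSeq synonyms, and a gene with several probe sets was represented by the one with the highest mean log2 value.

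The log2(signal + 38) values were fitted in R 4.3.3 with limma 3.58.1 (lmFit, then eBayes with trend and robust set), as a two-sided test with Benjamini-Hochberg adjustment over all probe sets. The script was tested on simulated arrays. Genes were named by rule: the 5 members, the linked and marker lists, the 2 measured neighbours on each side, and the 5 patterns nearest to each called member. The members, lists and alternatives were chosen with earlier results of these data known. No gene sequence was used here. Deviations from the group means correlated at -0.03, 0.036 and -0.007 between GSC and Kc arrays of the same number. Between arrays of different numbers they correlated at -0.057 to 0.055. No sign of pairing by number was seen, but 3 arrays per group cannot show that there was none.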

Additional observations from a re-analysis of the deposited data

How the results depend on the processing

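The dhd call and the missing calls of Trx-2, Trxr1 and Trxr2 held under all 16 alternatives. Leaving out arrays in turn gave log2 folds of 5.99 to 6.26 for dhd, 0.47 to 1.09 for TrxT (called only without Kc 1), -0.35 to -0.26 for Trx-2, 0.11 to 0.24 for Trxr1 and -1.11 to -0.29 for Trxr2. Trx-2 turned to 0.02 with quantile normalization and 0.16 with scaling to the hybridisation controls. The causes of these changes were not tested. Probe sets called higher and lower, 1633 and 1132, became 956 and 735 when the pseudocount was the median, 2810 and 685 with hybridisation control scaling, and 2528 and 1739 with a fold minimum of 1.5. Without single arrays they were 1563 to 1633 and 1094 to 1131. Linked genes called higher, 5, became 11 with hybridisation control scaling and 10 with a fold minimum of 1.5. These are 22.9% and 20.8%, beside 21.6% and 19.6% of all genes under the same settings, so nothing is read from the rise. Those called lower, 13, became 7 with hybridisation control scaling, 14.6% beside 4.84% of all genes.

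Of 823 values for 52 linked and neighbouring genes, 775 kept direction and call, 8 lost a call, 19 gained one and 21, none from a called gene, changed sign. With hybridisation control scaling Grx3 had 0.17, Gclm 0.09, Sod2 0.36, Pxd 0.32, Men-b 0.31 and Cdk7 0.24. With quantile normalization Grx1 had -0.15, Grx5 -0.07 and Men-b 0.10, and with scaling to the median Prx3 had -0.10, Grx1 -0.11 and Grx5 -0.08. CG13473 had 0.06 with a floor. Without single arrays the sign varied for CG13473 (-0.35 to 0.24), Prx3 (-0.08 to 0.12), Grx1 (-0.07 to 0.05), Grx5 (-0.09 to 0.16) and Pxd (-0.20 to 0.18). ProtB was called lower with a pseudocount of 1 (-1.83). The replicate number as a block left the log2 folds as they were (dhd 6.09, TrxT 0.69, Trx-2 -0.29, Trxr1 0.17, Trxr2 -0.65), with 1619 probe sets called higher and 1120 lower. No background level is given for dim signals, which limits TrxT, Trxr2 and the Kc values of dhd.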
